A study of Schizosaccharomyces pombe with 39 samples.

Results

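The clr4 neighbourhood of fission yeast (Schizosaccharomyces pombe) was described as every annotated gene and transcript that starts in one window of chromosome II, from apq12 (start 448638) to SPBC428.10 (start 460831) in the coordinates of the deposited tables. This window holds 10 of the 6745 listed features, and all 10 were measured in each of 13 groups of 3 libraries. Poly(A) RNA was sequenced from log-phase cultures grown in EMMC medium at 32 °C. Every strain lacks mst2 (mst2D), so no group has the Mst2 histone acetyltransferase. In the degron strain the only epe1 is nmt81-epe1-3xFLAG-AID, a copy tagged with an auxin-inducible degron and read from the nmt81 promoter, which thiamine represses. At ade6 this strain also carries 2 auxin receptors fused to skp1, skp1-OsTIR1 and skp1-AtTIR1-2NLS, each under adh15prom, with natMX6 as the marker. Thiamine and 1-naphthaleneacetic acid (TN) were added to remove Epe1. The time course holds this strain without TN (0 h) and after 24, 48, 72, 96 and 120 h with TN. A separate memory experiment holds untreated cells, cells after 120 h with TN, cells returned to TN-free medium for 24 h or 48 h after those 120 h, and cells given TN for a second time, for 24 h, after 24 h of recovery. The last set, called deletion 1 and deletion 2 here, is the double mutant mst2D epe1D, as biological replicates 1 and 2 with 3 libraries each. No TN-treated strain with an untagged epe1 is among these libraries, so effects of TN itself and of Epe1 loss cannot be told apart in the degron comparisons. The deletion libraries had no TN, but the strain also lacks the degron parts, so the deletion comparison with 0 h spans that difference of genotype too. Nothing says that the 3 libraries of a group came from separate cultures, so the p-values measure the spread between these libraries, which may be technical. In these bulk samples, fewer cells that express a gene and less RNA per cell cannot be told apart.

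Clr4 is the only histone H3 lysine 9 methyltransferase of fission yeast, and the mark it writes is bound by Swi6, Chp1 and Chp2 and packs centromeres, telomeres and the mating-type locus into heterochromatin. Epe1 is a JmjC-domain protein that counteracts this methylation and limits heterochromatin spreading, and Mst2 acetylates histone H3 and opposes silencing as well. Cells without both are known to build new heterochromatin over clr4 itself, which lowers the supply of the methyltransferase. The measurements below give transcript levels, not the mark.

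The clr4 entry runs from 453996 to 458487 on the minus strand. The meiotic gene meu6 (454108 to 456553, plus strand) lies whole inside it, facing the other way. In RefSeq's annotation the coding sequence of clr4 runs from 456575 to 458047, so all of meu6 lies in the stretch after the clr4 stop codon, in the listed 3′ UTR. Beyond the 3′ end of clr4 lie rxt2 (451027 to 453062, minus strand), which encodes a subunit of a histone deacetylase complex, the noncoding RNA SPNCRNA.1360 (450808 to 451618, plus strand), the arginine biosynthesis gene arg12 (449440 to 451091, minus strand) and the nuclear envelope gene apq12 (448638 to 449398, plus strand). On the promoter side lie the noncoding RNA SPNCRNA.1361 (458872 to 460189, plus strand), SPNCRNA.1362 (listed as SPBC428.10-antisense-1, 458982 to 461993, minus strand), SPNCRNA.534 (459469 to 459925, minus strand) and the protein-coding gene SPBC428.10 (460831 to 464017, plus strand). The gap between clr4 and rxt2 is 933 bases, and that between clr4 and SPNCRNA.1361 is 384 bases.

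The 384-base gap on the promoter side is nearly filled by a 347-base long terminal repeat, the remnant of a retrotransposon, which also covers the bases just before the listed clr4 start. Its first 300 bases, from the end next to clr4, are shown because the repeat separates clr4 from the first transcript on that side. Capitals mark TATAAA, the single match in these 300 bases, on the plus strand, with no match on the other strand. The rest of the repeat was not searched. TATAAA is on at least one strand of the 300 bases before 3287 of 6626 genes (49.6%), so its presence is common. The far end of the window, beyond SPBC428.10, holds a histidine tRNA gene followed by a 5S ribosomal RNA gene. tRNA genes are known to act as boundaries of heterochromatin at fission yeast centromeres, and this one is shown for its place at the edge of the window. Capitals mark the match to GGTTCNA, the core of the B box, an internal promoter element of tRNA genes; searched on the gene's own strand, it is in 112 of 171 tRNA genes (65.5%). A match describes the letters only. Both sequences are RefSeq's, build ASM294v3, plus strand, 5′ to 3′.
Long terminal repeat beside clr4, II:458478-458777: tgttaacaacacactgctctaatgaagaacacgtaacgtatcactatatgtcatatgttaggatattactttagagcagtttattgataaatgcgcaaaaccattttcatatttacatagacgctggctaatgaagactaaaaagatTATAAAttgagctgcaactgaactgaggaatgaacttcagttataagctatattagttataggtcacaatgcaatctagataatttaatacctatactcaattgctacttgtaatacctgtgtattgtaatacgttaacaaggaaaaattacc
tRNA-His gene, II:464238-464309: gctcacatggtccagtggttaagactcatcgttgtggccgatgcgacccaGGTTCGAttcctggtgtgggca

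The deposited read counts summed to between 20347886 and 26976973 in the 18 time-course libraries, between 14781022 and 21626064 in the 15 memory libraries and between 20733636 and 27900659 in the 6 deletion libraries. Values are given as CPM, a library's read count of a gene relative to its total, scaled within each experiment by edgeR's TMM factors, and differences as log2 changes ± SE from edgeR's quasi-likelihood test. A change is called where the Benjamini-Hochberg adjusted p over all genes tested is under 0.05. Levels of the deletion libraries were scaled apart from those of the time course, and the test between them was fitted on counts of both. The targeted gene, epe1, shares 1934 bases with the noncoding RNA prl67, so it was followed by its reads outside prl67. These fell from 83.4 ± 7.91 CPM (SD, n = 3) at 0 h to 35.6 ± 4.84 at 24 h, a log2 change of -1.23 ± 0.11 (edgeR adjusted p = 5.9e-07), and by 2.20 ± 0.10 on the log2 scale in deletion 1. In the memory experiment they fell by 2.10 ± 0.18 at 120 h and by 2.77 ± 0.19 in the second depletion, and the 24 h recovery value of 0.38 ± 0.17 against untreated was not called. GC content is tied to the counts unequally among memory libraries: the rank correlation across genes between GC content and a library's deviation from the mean ranged from -0.592 to 0.674 there, and from -0.149 to 0.15 in the time course. The largest of these belonged to library 2 of the second depletion.

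Treatment with TN was followed by a late fall of the clr4 entry, meu6 included, to 24.6% of its starting level at the lowest time point. At 0 h the 3 libraries read 50.5, 48.0 and 54.5 CPM for clr4, with 55.2, 54.7 and 60.6 at 24 h and 44.6, 48.1 and 52.7 at 48 h. The 24 h libraries lay just above those of 0 h and the 48 h libraries overlapped them, and neither change was called (0.16 ± 0.14, edgeR adjusted p = 0.38, and -0.07 ± 0.14, adjusted p = 0.68). At 72 h the libraries read 26.9, 24.1 and 19.9 CPM, all below every earlier library, a log2 change of -1.11 ± 0.14 against 0 h (edgeR adjusted p = 4.3e-05). At 96 h they read 11.4, 13.6 and 12.6 CPM, again below every 72 h library, at -2.02 ± 0.14 (edgeR adjusted p = 1.3e-07), and at 120 h 10.7, 14.1 and 17.2 CPM, at -1.86 ± 0.14 (edgeR adjusted p = 3.4e-07). The mean level was 46.3% of the 0 h mean at 72 h, 24.6% at 96 h and 27.5% at 120 h.

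Tested step by step, the fall took place between 48 and 96 h. The step from 24 to 48 h was -0.23 ± 0.14 (edgeR adjusted p = 0.35), that from 48 to 72 h was -1.04 ± 0.14 (adjusted p = 0.00021), that from 72 to 96 h was -0.91 ± 0.14 (adjusted p = 0.0047) and that from 96 to 120 h was 0.16 ± 0.15 (adjusted p = 0.53). The step from 72 to 96 h was not called when only those libraries were fitted (adjusted p = 0.056). For meu6 this step was -0.93 (adjusted p = 0.011), and it was not called with only those libraries fitted (adjusted p = 0.077) or without 72 h library 2, 96 h library 1 or 96 h library 3. Ranked by mean, the order of the time points was 24, 0, 48, 72, 120 and 96 h, and the ranges of 0 and 48 h and of 120 and 96 h overlapped.

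Whether strand was used in counting is not given in the sources used here, so the counts themselves were examined. The meu6 count was never above the clr4 count in any of the 39 libraries. The same held for 658 of all 664 pairs (99.1%) in which a listed feature lies whole inside another on the opposite strand, and for 134 of 135 such pairs (99.3%) on the same strand. On this basis reads in the meu6 interval were treated as part of the clr4 count; if strand was used, the difference of both counts would not measure the clr4 reads outside meu6. The clr4 reads outside meu6, taken as that difference over 2046 bases that hold the whole coding sequence, were followed on their own. They fell in the same way, from 15.3 ± 2.23 CPM at 0 h to 6.54 ± 0.78 at 72 h, 3.56 ± 0.45 at 96 h and 4.24 ± 0.61 at 120 h (SD, n = 3 each). The log2 changes were -1.23 ± 0.14, -2.10 ± 0.15 and -1.85 ± 0.15 (edgeR adjusted p = 2.4e-05, 1.3e-07 and 5.5e-07).

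The meu6 interval held more reads per length than the coding part at 0 h, with 14.6 against 7.49 mean CPM per kb. In meu6 the 0 h libraries read 36.5, 33.9 and 36.6 CPM, the 72 h libraries 19.5, 18.02 and 13.8, the 96 h libraries 8.34, 9.68 and 8.95, and the 120 h libraries 6.78, 10.3 and 12.3. All 9 late libraries lay below every 0 h library. The log2 changes of meu6 were -1.06 ± 0.16, -1.99 ± 0.17 and -1.87 ± 0.17 (edgeR adjusted p = 0.00029, 8.9e-07 and 1.6e-06), and those at 24 and 48 h (0.19 ± 0.16 and -0.10 ± 0.16) were not called. The share of clr4 counts that fell inside meu6 stayed between 63.1% and 74.7% in all 18 time-course libraries.

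**Figure D1:**
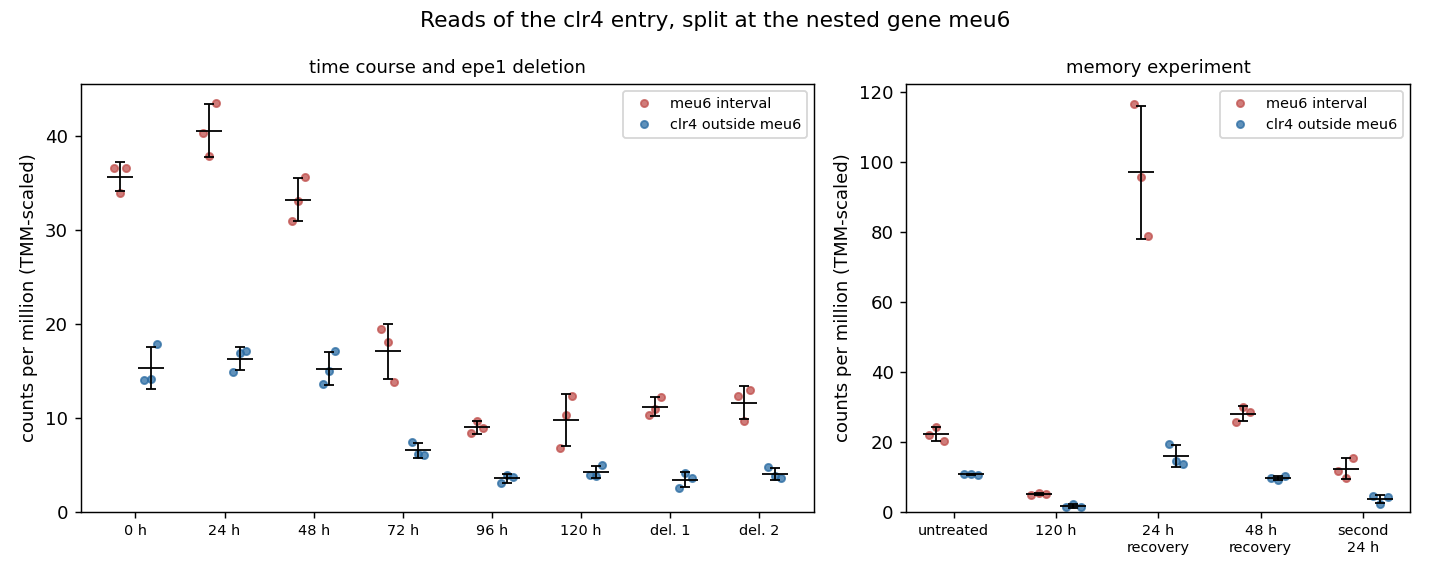
Reads of the clr4 entry in CPM (vertical axis) by group (horizontal axis), split into the meu6 interval (red) and the rest of clr4 (blue). Points are libraries, bars the mean and SD of 3; the left and right panels have their own scales. Both intervals drop between 48 and 96 h, and at 24 h of recovery the meu6 interval averages 97.1 CPM while the rest of clr4 averages 15.8.

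The mst2D epe1D strain had a mean clr4 level near that of the long depletion. Reads listed for epe1 outside prl67 remained in it, at means of 18.4 and 18.3 CPM beside 83.4 at 0 h. For clr4, deletion 1 read 12.8, 15.1 and 15.8 CPM and deletion 2 read 17.02, 13.4 and 16.6 CPM, all below every 0 h library. Against 0 h, clr4 was lower by -1.83 ± 0.15 in deletion 1 (edgeR adjusted p = 2.5e-06) and by -1.73 ± 0.15 in deletion 2 (adjusted p = 4.4e-06). The mean of both against 120 h was 0.08 ± 0.13 (adjusted p = 0.65), and deletion 2 against deletion 1 was 0.10 ± 0.15 (adjusted p = 0.97). Outside meu6 the changes against 0 h were -2.20 ± 0.19 and -1.95 ± 0.18, both called, and in meu6 they were -1.70 ± 0.17 and -1.64 ± 0.17, both called.

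In the memory experiment the clr4 entry, meu6 included, fell and then rebounded above its starting level within 24 h of recovery. It returned near that level by 48 h and fell again within 24 h of a second depletion. Outside meu6 the rise over untreated at 24 h of recovery was not called. The untreated libraries read 32.99, 35.0 and 30.8 CPM for clr4. After 120 h with TN they read 6.10, 7.61 and 6.68 CPM, a log2 change of -2.28 ± 0.18 (edgeR adjusted p = 1.9e-06), with no overlap. After 24 h of recovery they read 136, 110.2 and 92.4 CPM, far above every other memory library. This was a rise of 4.05 ± 0.19 over 120 h (edgeR adjusted p = 5.7e-09) and of 1.78 ± 0.16 over untreated (adjusted p = 3.9e-05), or 3.43 times the untreated mean. At 48 h of recovery they read 35.3, 39.1 and 38.6 CPM, just above the untreated libraries, at 0.19 ± 0.16 (adjusted p = 0.56). After the second depletion they read 16.3, 11.9 and 19.7 CPM, below untreated by -1.03 ± 0.17 (edgeR adjusted p = 0.00092) and below 24 h of recovery by -2.81 ± 0.17 (adjusted p = 1.7e-07). That level still lay above the first 120 h of depletion, by 1.25 ± 0.18 (edgeR adjusted p = 0.002); with only those libraries fitted this last difference was not called (adjusted p = 0.099).

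The rebound was not even along the clr4 entry. In the meu6 interval the untreated libraries read 22.1, 24.2 and 20.2 CPM and the 24 h recovery libraries 116.7, 95.8 and 78.8 CPM, a rise of 2.13 ± 0.17 (edgeR adjusted p = 2.7e-05). Outside meu6, where the coding sequence lies, the untreated libraries read 10.9, 10.8 and 10.6 CPM and the 24 h recovery libraries 19.4, 14.5 and 13.6 CPM. The latter were higher in 3 of 3 libraries, but the change of 0.56 ± 0.23 was not called (edgeR adjusted p = 0.295). Against 120 h, the coding side did rise at 24 h of recovery, by 3.28 ± 0.26 (edgeR adjusted p = 2.1e-06), from 1.63 ± 0.51 to 15.8 ± 3.15 CPM. From 24 to 48 h of recovery the meu6 interval fell by 1.79 ± 0.16 (edgeR adjusted p = 3.4e-05), while the change outside it, -0.72 ± 0.23, was not called (adjusted p = 0.11). The second depletion lowered both, to 12.3 ± 2.95 CPM in meu6 (-0.83 ± 0.17 against untreated, adjusted p = 0.0035) and to 3.66 ± 1.23 CPM outside it (-1.52 ± 0.25, adjusted p = 0.00082).

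As a share of clr4 counts, the meu6 interval held 85.7%, 86.9% and 85.3% at 24 h of recovery against 67.0%, 69.2% and 65.5% in untreated cells, with no overlap. The exact permutation test (two-sided) gave p = 0.1, the smallest that 3 against 3 libraries allow. The shares were 76.4% ± 4.64 after 120 h, 74.4% ± 2.09 at 48 h of recovery and 77.3% ± 4.57 in the second depletion (SD, n = 3 each), each again with exact p = 0.1 against untreated. In the deletion strains the share was 76.8% ± 3.83 and 74.1% ± 3.66, against 70.0% ± 2.65 at 0 h (exact p = 0.1 and 0.3). Since meu6 reads the opposite strand, whether the extra reads at 24 h of recovery are clr4 or meu6 transcripts was not tested.

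**Figure D2:**
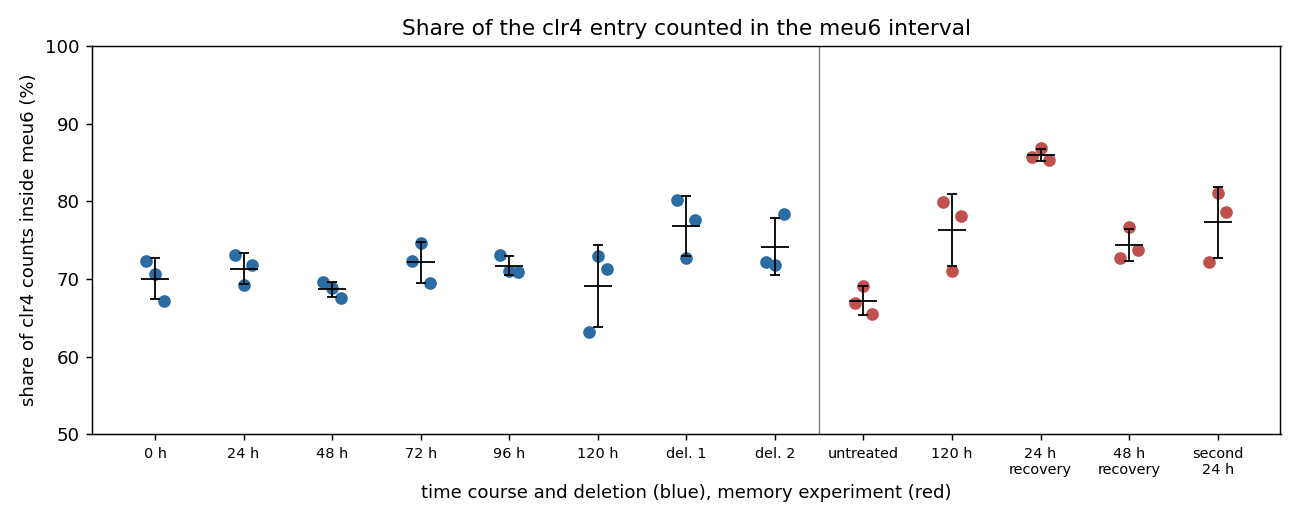
Share of each library's clr4 counts that lie in the meu6 interval (vertical axis, percent, starting at 50) by group (horizontal axis), with points for libraries and bars for mean and SD of 3. The 24 h recovery libraries, at 85.3% to 86.9%, stand above all others.

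Some of these effects were compared directly. The 120 h effect on clr4 in the memory experiment minus that in the time course was -0.40 ± 0.23 (edgeR adjusted p = 0.48; 3.81% of all genes were called). The change over the second 24 h with TN, taken from 24 h of recovery, was more negative than that over the first 24 h of the time course, by -2.94 ± 0.22 (edgeR adjusted p = 1.1e-09; 26.2% of all genes were called). Since 24 h of recovery is a raised starting point, the same difference was also taken from the untreated memory libraries, a choice made after the values were seen. It was then -1.15 ± 0.22 for clr4 (edgeR adjusted p = 0.00054) and -1.57 ± 0.27 for clr4 outside meu6 (adjusted p = 0.00023), and -1.46 and -1.56 with GC content corrected, both called. Other features differed as well on this baseline, where 21.8% of all genes tested were called lower and 21.6% higher. The differences called were -0.99 for meu6, -0.86 for rxt2, -1.09 for SPNCRNA.534, -0.96 for SPNCRNA.1362, -0.81 for SPBC428.10, 1.44 for arg12 and 1.65 for SPNCRNA.1360. With GC content corrected, those of rxt2 (-0.22) and SPNCRNA.534 (-0.50) were not called, and apq12, at -0.12 and not called before, was at 0.45 and called. The second and first 24 h come from separate experiments, and the second depletion libraries differ from the others in their relation to GC content. With GC content corrected, the first of these differences was still called, at -3.20 with and without the replicate block.

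rxt2, the nearest gene beyond the 3′ end of clr4, moved with it at a smaller size. At 0 h its libraries read 53.4, 56.1 and 60.0 CPM, at 96 h 37.7, 44.1 and 40.7, and at 120 h 43.7, 48.1 and 45.2. All 6 late libraries lay below every 0 h library, and the log2 changes were -0.47 ± 0.08 at 96 h (edgeR adjusted p = 0.0008) and -0.31 ± 0.08 at 120 h (adjusted p = 0.014), the latter not called without 0 h library 3 or 120 h library 1. The 24 h libraries read 58.0, 62.4 and 67.5 CPM, the 48 h libraries 63.8, 65.8 and 66.1, and the 72 h libraries 52.2, 44.2 and 49.8. The rise at 48 h, 0.21 ± 0.08, was called (edgeR adjusted p = 0.035), but with GC content corrected it was 0.03 and not called. At 72 h the change was -0.21 ± 0.08 (adjusted p = 0.073). Of the rxt2 entry, 592 bases (29.1%) are shared with SPNCRNA.1360 and 65 bases with arg12. How many rxt2 reads come from these more highly read neighbours was not tested.

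In the deletion strains rxt2 read 37.5, 37.7 and 38.6 CPM and 39.4, 42.6 and 38.9 CPM, lower than 0 h by -0.60 ± 0.06 and -0.51 ± 0.06 (edgeR adjusted p = 1.7e-05 and 6.2e-05). It was the only one of the 10 features whose mean in the deletion strains differed from 120 h by edgeR's test (-0.25 ± 0.05, adjusted p = 0.0022; 42.4% of all genes were called), and with each deletion replicate summed to 1 library this was not called (adjusted p = 0.065). In the memory experiment the untreated libraries read 49.7, 46.4 and 49.1 CPM and the 120 h libraries 27.2, 29.2 and 28.3, a fall of 0.78 ± 0.10 on the log2 scale (edgeR adjusted p = 0.00018) with no overlap. After 24 h of recovery rxt2 read 48.3, 43.7 and 44.5 CPM, up from 120 h by 0.69 ± 0.10 (edgeR adjusted p = 0.0007). Against untreated it was at -0.09 ± 0.10, so it had no call above the untreated level when the whole clr4 entry did. At 48 h of recovery it read 44.2, 45.8 and 36.3 CPM (-0.20 ± 0.10, not called). In the second depletion it read 31.7, 26.2 and 28.4 CPM, a change of -0.75 ± 0.10 against untreated (edgeR adjusted p = 0.0002) that was -0.16 and not called with GC content corrected.

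Farther out on this side, apq12 had means slightly below 0 h from 24 h on in the time course. arg12 and SPNCRNA.1360 had no late call there. The apq12 change at 48 h was -0.11 ± 0.05 and was not called. The apq12 libraries at 72, 96 and 120 h all lay below every 0 h library (-0.16, -0.28 and -0.12), of which the 96 h change was called. At 120 h of the memory experiment apq12 was at 0.08 ± 0.21 and not called. apq12 was lower at 24 h (-0.16 ± 0.05, edgeR adjusted p = 0.031) and at 96 h (-0.28 ± 0.05, adjusted p = 0.0032), the first of which was not called without 0 h library 2, 0 h library 3, 24 h library 1 or 24 h library 2. Its group means ran from 44.1 to 53.5 CPM in the time course and from 31.1 to 41.3 CPM in the memory experiment. arg12 had no call in the time course, with group means of 543 to 656 CPM. It was higher in deletion 2 (0.28 ± 0.08, edgeR adjusted p = 0.021), a call that did not hold without 0 h library 2 or 3 or without any one library of deletion 2. In the second depletion arg12 read 1127, 2803 and 1443 CPM against 580.3, 710.9 and 764.5 in untreated cells, a rise of 1.39 ± 0.29 (edgeR adjusted p = 0.0043). Library 2, the highest, is the one with the strongest relation to GC content, and the rise was 0.75 with GC content corrected (adjusted p = 0.00019); with only the 2 groups fitted it was not called (adjusted p = 0.051). Without library 2 the rise was 0.91 and was called (adjusted p = 0.0063). SPNCRNA.1360 is covered whole by arg12 and rxt2 and overlaps arg12 by 284 bases. It rose in the second depletion too, to 343, 1135 and 465 CPM, by 1.61 ± 0.34 (edgeR adjusted p = 0.0044; 0.051 with only the 2 groups fitted), with no other call against untreated or 0 h. Library 2 was again the highest: without it the rise was 0.94 (adjusted p = 0.0045), and with GC content corrected it was 1.96 (adjusted p = 0.0033); how many of its reads come from arg12 or rxt2 was not tested.

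On the promoter side the first transcript, SPNCRNA.1361, rose early and was lower late as a whole, with no late call outside SPNCRNA.534. Its 0 h libraries read 11.6, 9.52 and 9.83 CPM, its 24 h libraries 14.4, 14.02 and 14.9, and its 48 h libraries 12.5, 14.6 and 15.2. All 6 lay above every 0 h library (0.48 ± 0.12 and 0.45 ± 0.12, edgeR adjusted p = 0.0055 and 0.0058), but with GC content corrected the changes were 0.30 and 0.15 and not called. The 72 h libraries read 9.21, 9.56 and 8.19 CPM, at -0.20 ± 0.12 (not called). The 96 h libraries read 7.12, 7.26 and 6.53 CPM and the 120 h libraries 6.14, 7.96 and 7.80, all below every 0 h library (-0.57 ± 0.12 and -0.50 ± 0.12, edgeR adjusted p = 0.0059 and 0.011). The 120 h call did not hold without 0 h library 1 or without 120 h library 1.

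SPNCRNA.1361 read 6.56, 8.50 and 6.58 CPM in deletion 1 (-0.54 ± 0.16, edgeR adjusted p = 0.018; not called without 0 h library 1 or deletion 1 library 1 or 3) and 7.65, 9.98 and 7.83 CPM in deletion 2 (-0.30 ± 0.15, adjusted p = 0.16). In the memory experiment the untreated libraries read 3.70, 3.09 and 5.23 CPM, the 120 h libraries 2.504, 3.53 and 3.00, the 24 h recovery libraries 3.53, 2.41 and 4.20, the 48 h recovery libraries 4.59, 5.44 and 2.46, and the second depletion libraries 4.16, 0.54 and 2.71. All these groups overlapped and none was called. This is a weakly read transcript, with 5 to 390 counts per library over all 39 libraries, so a change of the size seen in the time course was hardly detectable there: the SE of its memory comparisons with untreated was 0.46 to 0.48. SPNCRNA.534, which lies whole inside SPNCRNA.1361, had the same calls in the time course, at 0.39 ± 0.11, 0.35 ± 0.11, -0.69 ± 0.12 and -0.50 ± 0.12 at 24, 48, 96 and 120 h. SPNCRNA.1361 also shares 1208 bases (91.7% of its length) with SPNCRNA.1362, and SPNCRNA.534 lies whole inside SPNCRNA.1362. Reads shared with SPNCRNA.1362 were not taken out, so the changes of these 3 features cannot be told apart if strand was not used. The SPNCRNA.1361 reads outside SPNCRNA.534 were few, with a mean of 1.80 CPM at 0 h. They were higher at 24 and 48 h, by 0.85 ± 0.25 and 0.83 ± 0.25 (edgeR adjusted p = 0.017 and 0.014). Late they changed by -0.10 ± 0.27 at 96 h (adjusted p = 0.86), with overlapping libraries, and by -0.48 ± 0.28 at 120 h (adjusted p = 0.30), where the 3 libraries (mean 1.30 CPM) lay below every 0 h library but the change was not called. The SPNCRNA.534 calls did not hold without 0 h library 2 or 3 or 24 h library 3 at 24 h, without 0 h library 2 or 3 or 48 h library 2 or 3 at 48 h, and without 0 h library 1 at 120 h, and the 24 and 48 h calls did not hold with GC content corrected (0.27 and 0.15).

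SPBC428.10, the last gene of the window and a protein-coding gene of no stated function in the files, rose early and had a mean of 47.8 CPM at 96 h, beside 48.4 CPM at 0 h, when clr4 was lowest. Its libraries read 47.9, 46.1 and 51.1 CPM at 0 h, 83.9, 108.2 and 76.8 at 24 h and 84.9, 120.9 and 132.6 at 48 h. Both later groups lay whole above 0 h, by 0.89 ± 0.24 and 1.22 ± 0.24 (edgeR adjusted p = 0.0092 and 0.00069). The 72 h libraries read 56.7, 80.7 and 66.6 CPM, below 48 h by -0.73 ± 0.23 (edgeR adjusted p = 0.045), a call that did not hold without 48 h library 2 or 3 or 72 h library 1 or 3, or with only those libraries fitted (adjusted p = 0.081). At 96 and 120 h the changes against 0 h were -0.02 ± 0.24 and -0.17 ± 0.24, and in the deletion strains 0.05 ± 0.14 and 0.00 ± 0.14, none of them called.

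At 24 h of recovery, when the clr4 entry but not its part outside meu6 was called higher, SPBC428.10 was lower than untreated. The untreated libraries read 88.5, 67.7 and 87.8 CPM and the 24 h recovery libraries 49.6, 46.5 and 39.9, a fall of 0.84 ± 0.16 on the log2 scale (edgeR adjusted p = 0.0098). That call did not hold without untreated library 1 or 3 or 24 h recovery library 3. At 120 h it read 60.9, 52.1 and 55.2 CPM (-0.54 ± 0.16, adjusted p = 0.069), and the change from there to 24 h of recovery was -0.31 ± 0.16 (adjusted p = 0.46). At 48 h of recovery it read 85.1, 79.0 and 99.97 (0.11 ± 0.16, adjusted p = 0.71) and in the second depletion 82.5, 104.8 and 66.4 (0.05 ± 0.16, adjusted p = 0.8). SPNCRNA.1362 shares 1163 bases with SPBC428.10 on the other strand and followed it, with 0.83 ± 0.19 at 24 h, 1.08 ± 0.19 at 48 h and -0.84 ± 0.15 at 24 h of recovery, all called. Its step from 48 to 72 h, -0.66 (adjusted p = 0.026), was not called without the same 48 and 72 h libraries or with only those libraries fitted (adjusted p = 0.075). The pair cannot be told apart from these counts.

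**Figure D3:**
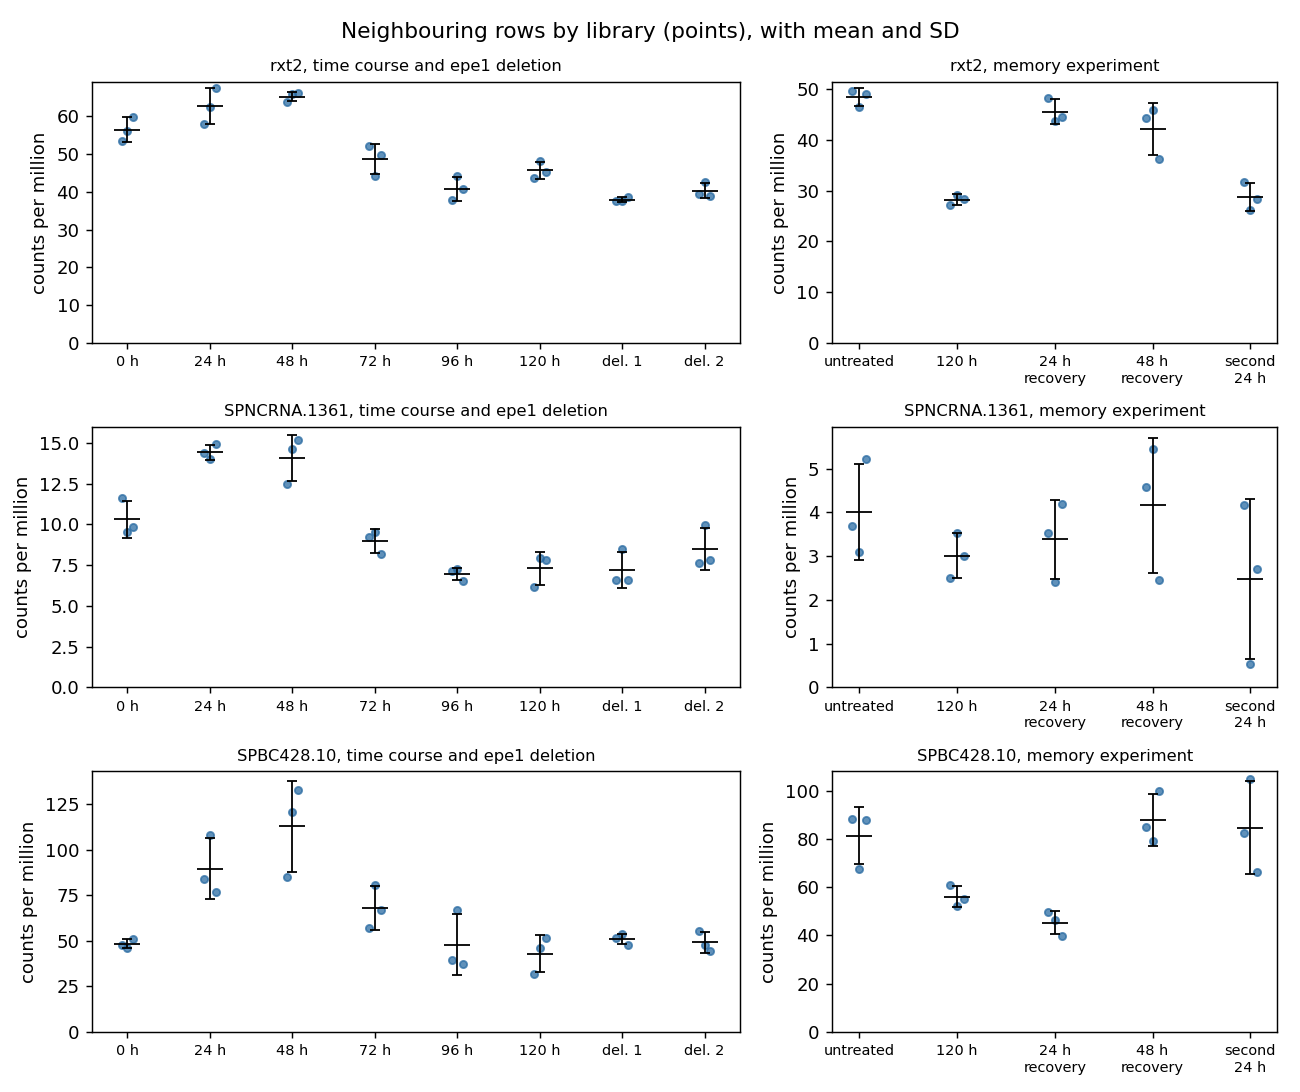
CPM (vertical axis, from 0) of rxt2, SPNCRNA.1361 and SPBC428.10 by group (horizontal axis), with points for libraries and bars for mean and SD of 3. rxt2 falls with clr4 at 96 and 120 h but does not pass its untreated level at 24 h of recovery, and SPBC428.10 peaks at 48 h with a mean of 112.8 CPM.

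Read across the window, the late fall was strong at clr4 and meu6, with smaller falls next to them. At 72 h, 2 of 10 features were called, both lower (clr4 and meu6), where 5.57% of all genes tested were called lower. With GC content corrected 5 were called there, apq12, rxt2 and SPNCRNA.534 as well, and by DESeq2 4, apq12 and rxt2 as well. At 96 h, 6 of 10 were lower (4.94% of all genes) and none higher, and at 120 h 5 of 10 were lower (7.76%). Since meu6 lies whole inside clr4 and SPNCRNA.534 whole inside SPNCRNA.1361 and SPNCRNA.1362, counts and medians here do not rest on 10 independent features. From 48 to 72 h, 7 of 10 fell (10.6% of all genes), all but apq12, arg12 and SPNCRNA.1360; the calls of SPBC428.10 and SPNCRNA.1362 were lost without any one of 4 libraries. From 72 to 96 h 2 of 10 fell, clr4 and meu6 (0.84%), neither called with only those libraries fitted. At 96 and 120 h, rxt2, SPNCRNA.1361 and SPNCRNA.534 were called at -0.31 to -0.69. The SPNCRNA.1361 reads outside SPNCRNA.534 were not called at either time. With a minimum of a 2-fold change, clr4 and meu6 were the only features called at 72 h (4.74% of all genes), 96 h (3.62%) and 120 h (4.38%) of the time course, at 120 h of the memory experiment (2.58%), at 24 h of recovery (1.13%) and in deletion 1 and 2 (3.37% and 2.89%). The median log2 change of the 10 features was -0.37 at 96 h and -0.24 at 120 h, beside 0.00 and 0.01 over all genes. In the memory experiment at 120 h, 3 of 10 were lower, clr4, meu6 and rxt2 (3.53% of all genes), and in deletion 1 and 2 the lower ones numbered 5 and 3 (15.6% and 14.8%), with arg12 higher in deletion 2 (16.5%). rxt2, clr4 and meu6 were lower in each of these 5 comparisons, which are those after 96 h or more with TN or with epe1 deleted; 4 of the 5 share the 0 h libraries as their control.

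Early and in recovery the window looked different. At 24 h, 4 of 10 were higher, the 4 on the promoter side, where 20.5% of all genes were called higher, and 1 (apq12) was lower (17.2%); at 48 h, 5 of 10 were higher (25.6%). With the 2-fold minimum the called features were 0 at 24 h (6.24% of all genes) and 2 at 48 h, SPBC428.10 and SPNCRNA.1362 (9.81%). Against such backgrounds these early counts rest on few features that overlap each other. At 24 h of recovery 2 of 10 were higher, clr4 and meu6 (0.925% of all genes), and 2 lower, SPBC428.10 and SPNCRNA.1362 (2.11%). The clr4 reads outside meu6 were not called there (0.56 ± 0.23, edgeR adjusted p = 0.295). Against 120 h, 3 of 10 were higher then, clr4, meu6 and rxt2 (2.28%). At 48 h of recovery edgeR called 0 of 10 (2.42% of all genes), with 0 at an unadjusted p under 0.05 and 0 by DESeq2. In the second depletion 3 were lower (22% of all genes) and 2 higher (22.7%), a comparison in which 44.7% of all genes were called; 3 passed the 2-fold minimum (9.73%), clr4, arg12 and SPNCRNA.1360.

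**Figure D4:**
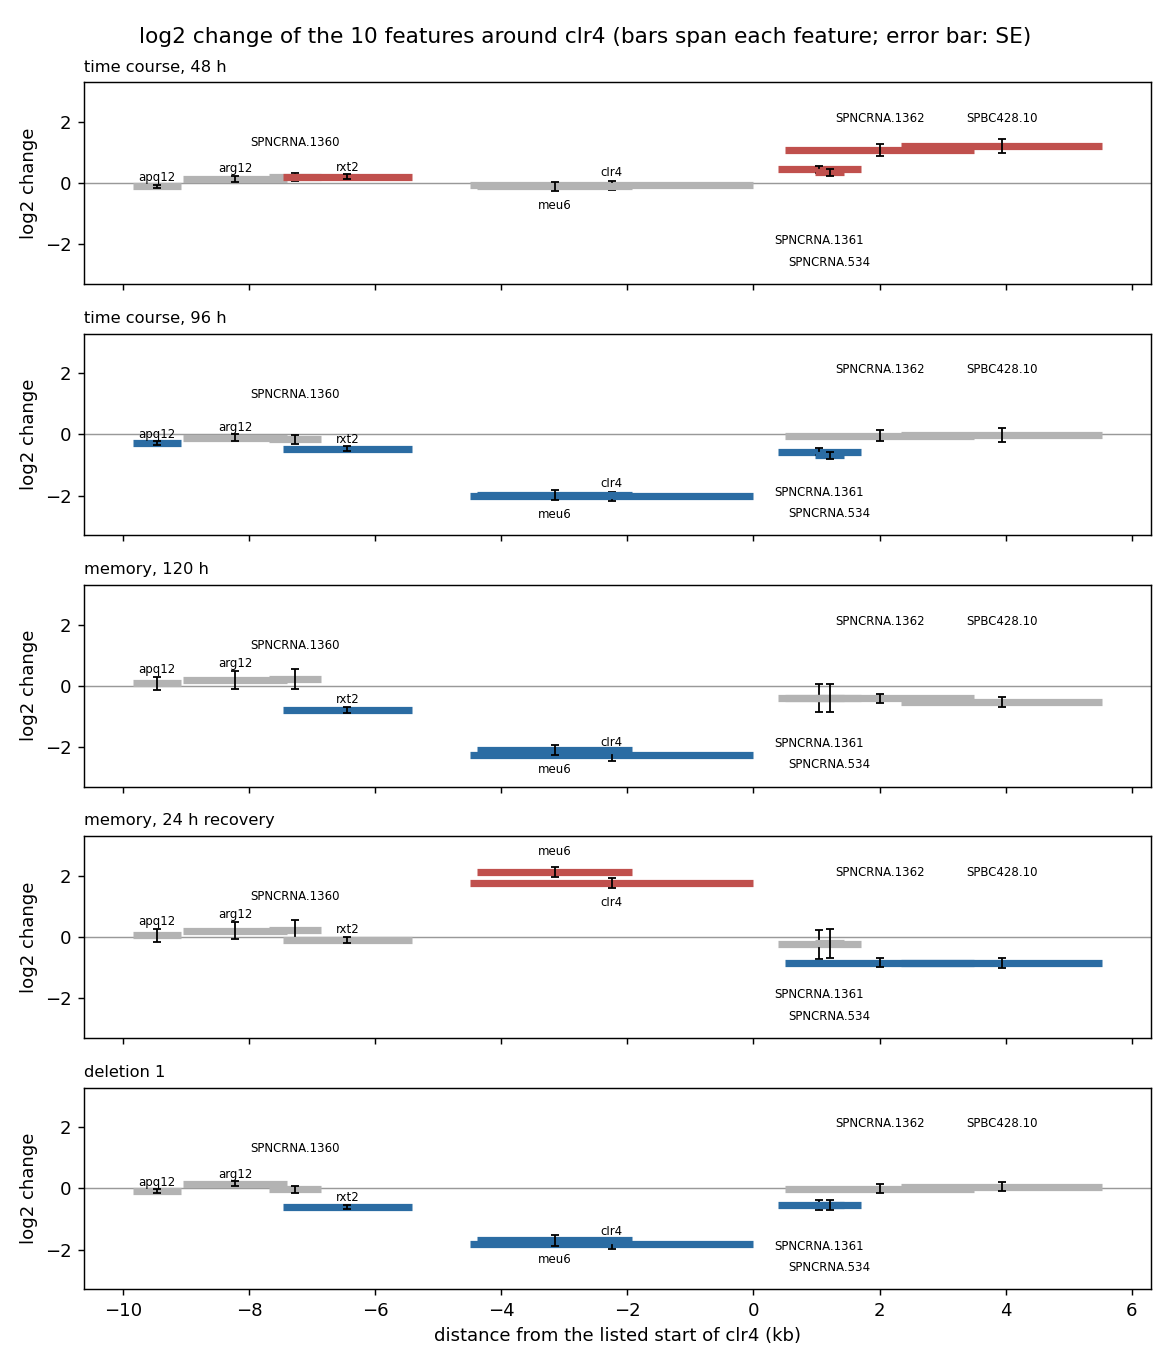
log2 change ± SE (vertical axis) of each feature against 0 h or untreated, drawn as a bar over the feature's span, by distance in kb from the start of the clr4 transcript as listed (horizontal axis, positive on the promoter side); red is called higher, blue called lower, grey not called. At 96 h, at 120 h of the memory experiment and in deletion 1 the clr4 and meu6 bars lie between -2.28 and -1.70 and those of the neighbours between -0.78 and 0.22.

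**Figure D5:**
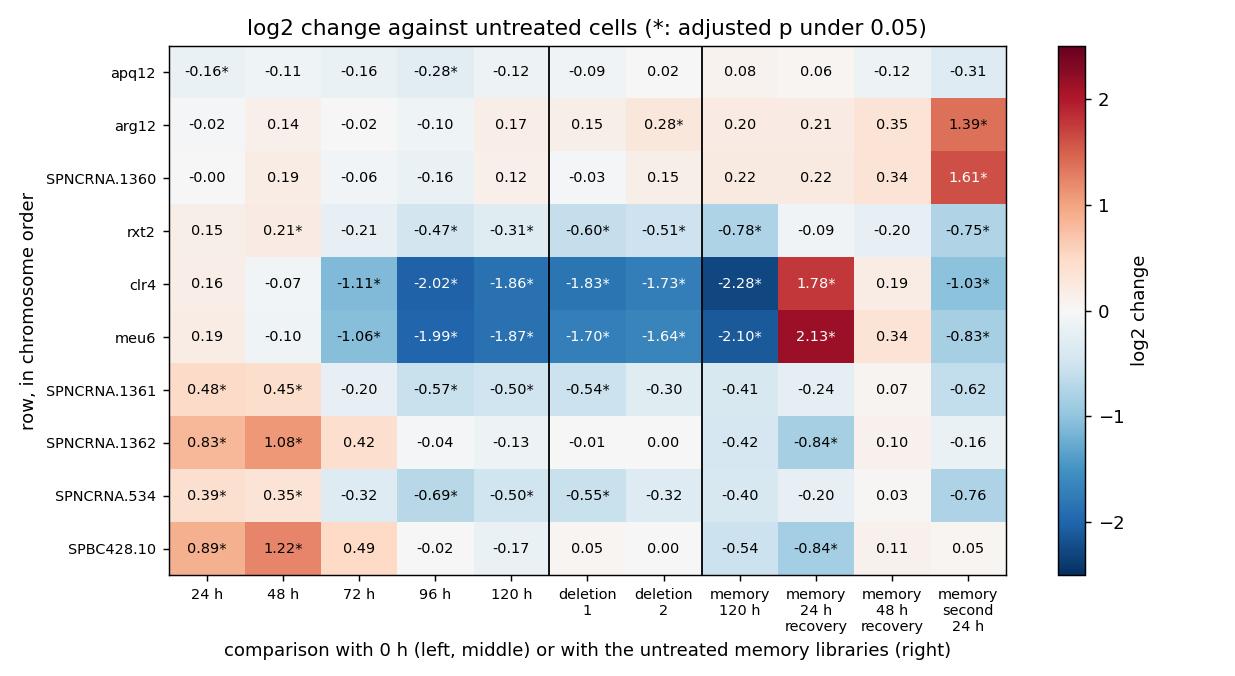
log2 change of the 10 features (vertical axis, in the order of the chromosome) in the 11 comparisons with 0 h or untreated cells (horizontal axis), with an asterisk where the adjusted p is under 0.05. The clr4 and meu6 values run from -2.28 to 2.13, and the rxt2 values from -0.78 to 0.21.

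The genes just outside the window were read at far higher levels than clr4. Beyond apq12, pho4, a phosphatase gene known to be repressed by thiamine, had a mean of 1278 CPM at 0 h and means of 107.7 to 146.02 CPM in all later time points. Its mean was 2093 CPM in untreated memory cells, 169.4 CPM after 120 h with TN and 3717 CPM after 24 h of recovery. On the other side met17, a sulfur amino acid gene, had means of 552.9 CPM at 0 h, 1335 at 96 h and 784.3 in deletion 1. These are given as values only, without their test results.

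Likeness to clr4 was ranked among the 6062 genes with a mean of at least 5 CPM over the degron libraries. The 5 whose log2 group means were most like those of clr4 over the 11 degron groups were prl25 (Pearson r = 0.879), yak3 (0.879), rxt2 (0.875), atp7 (0.865) and SPNCRNA.270 (0.863). The group means of rxt2 varied with an SD of 0.30 on the log2 scale, and those of prl25 and atp7 with 0.08 each. For meu6, the overlapping gene, whose r was 0.998, the SD was 1.198. Over the 6 time-course groups alone the leading 5 were SPCPB16A4.07 (0.989), SPAC2F3.05c (0.989), ypa2 (0.987), pcr1 (0.984) and trs3-antisense-1 (0.983), and of the other features of the window rxt2 and SPNCRNA.534 had r = 0.949 each and SPNCRNA.1361 had 0.93. These values describe likeness only, and no test was made of them.

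While clr4 fell in the time course, few other genes of the H3K9 methylation and heterochromatin machinery were called. The list holds 23 genes, among them rik1 of the Clr4 complex, the readers swi6, chp1 and chp2, the deacetylase genes clr3 and sir2 and the RNAi genes ago1, dcr1 and rdp1; 22 were tested, and cul4 was not. At 72 h edgeR called 0 of 22 (1 at an unadjusted p under 0.05, and 0 by DESeq2), and at 96 h 0 of 22 (2 at an unadjusted p under 0.05, and 1 by DESeq2), where 15.8% and 12.5% of all genes tested were called, with medians of -0.03 and -0.02 and no value below -0.17. At 120 h of the time course and of the memory experiment 1 of 22 was called, clr2, a subunit gene of the SHREC deacetylase complex, at -0.28 and -0.36, where 14.1% and 6.15% of all genes were called. It was also lower at 48 h (-0.20) and in the second depletion (-0.37). In the deletion strains 8 and 7 of 22 were lower (15.6% and 14.8% of all genes) and 1 and 0 higher (17.2% and 16.5%), none below -0.36.

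Early in the time course edgeR called 4 of 22 at 24 h and 5 of 22 at 48 h, where 37.7% and 48.0% of all genes were called. Lower were swi6 (-0.19 at 24 h and -0.36 at 48 h), the remodeller gene fft3 (-0.22 and -0.30) and pob3, a FACT subunit gene (-0.23 and -0.31). Higher at 24 h was abo1 (0.25). nup132, a nuclear pore gene, was lower at 48 h (-0.21) and in deletion 2 (-0.16). The deletion strains had lower chp1 (-0.33 and -0.22), chp2 (-0.32 and -0.36), rdp1 (-0.27 and -0.31), rik1 (-0.33 and -0.22) and pob3 (-0.27 and -0.26). In the second depletion 6 of 22 were lower and 4 higher, where 22% and 22.7% of all genes were. These values ran from -0.81 (sir2) to 0.76, with swi6 at -0.78, rik1 at -0.58, rdp1 at -0.33, pob3 at -0.23 and abo1 at 0.39. With GC content corrected, a value added after the data were seen, 6 of 22 were lower and 1 higher. The higher one was stc1, at 1.38 (edgeR adjusted p = 0.0035), the largest of these corrected changes. Still called were swi6 at -0.72 and rik1 at -0.43, while sir2 (-0.41), rdp1 (-0.21) and abo1 (0.02) were not called. In turn, clr1 (-0.35) and fft3 (-0.17) were called lower only with the correction.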

How the data were processed

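Reads were trimmed with Trimmomatic and aligned with STAR to build ASM294v2, per the submitters' processing notes; the versions, the counting tool and its use of strand are not given in the sources used here. The authors deposited whole-number read counts per gene in 3 tables, which hold 6 further count columns that match no labelled sample and were not used. Replicate numbers were read from the column names. Library totals are given in the report, and no intervals beyond the model's SE were computed.

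Counts were tested with edgeR 4.0.16 (TMM, filterByExpr, robust quasi-likelihood fit; R 4.3.3) in 4 fits over all groups of the time course, the memory experiment, the deletion set with its 0 h and 120 h controls, and all degron libraries together, and 23 comparisons were made. Alternatives were DESeq2 1.42.0, no filter, only the groups compared, a replicate block, a GC correction (loess, span 0.5), leaving out each library, and summed deletion libraries. The edgeR step was tested on simulated counts. Reads of clr4 outside meu6 are the difference of both counts. The second-depletion libraries carry no treatment in 1 label field, and their titles were followed. Every feature of the window was named, with values by library for clr4, meu6, the nearest neighbour on each side and, chosen after values were seen, SPBC428.10 and arg12. The members and the gene list were chosen with earlier results of these data known.

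Sequences came from RefSeq's ASM294v3 by its own annotation; 2399 of 2411 matched chromosome II genes share a start or end with the deposited coordinates. Same-numbered replicates deviated together (every correlation over 0.1) for 72 h against 0 h (0.165, 0.175 and 0.161), 72 h against 48 h (0.626, 0.458 and 0.369) and 96 h against 72 h (0.237, 0.419 and 0.182), from the data and not from the labels, and in no other comparison.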

Additional observations from a re-analysis of the deposited data

Results flagged for a closer look

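Tests of the difference between effects passed the threshold for several features. The change over the second 24 h with TN, taken from 24 h of recovery, differed from that over the first 24 h by -2.94 (log2) for clr4, -3.13 for meu6 and -0.79 for rxt2, and by 1.21 for arg12 and 1.41 for SPNCRNA.1360, where 26.2% of all genes tested were called. Without library 2 of the second depletion the SPNCRNA.1360 difference was 0.72 and was not called (edgeR adjusted p = 0.052). With GC content corrected, the rxt2 difference was -0.34 and was not called (adjusted p = 0.09), and that of arg12 was 0.61 and was called. The 120 h effect on rxt2 was more negative in the memory experiment than in the time course, by -0.46, where 3.81% of all genes were called; this was not called without any one of 8 of the 12 libraries, with differences of -0.41 to -0.45 and adjusted p of 0.058 to 0.091. The experiments differ in GC relation, and the part of that in these differences was not tested beyond the corrected values given.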

How the results depend on the processing

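Of 318 alternative values of the 23 clr4 comparisons, 310 kept their direction and their side of the threshold. Counting outside meu6 left 24 h recovery against untreated (0.56) and 48 h against 24 h recovery (-0.72) uncalled, and turned 2 uncalled values, 48 h recovery against untreated to -0.16 and the deletion mean against 120 h to -0.22. Fitting only the groups compared left 96 h against 72 h (-0.91) and the second depletion against 120 h (1.23) uncalled. Leaving out each library gave -0.02 to 0.32 for 120 h against 96 h and -0.08 to 0.26 for the deletion mean against 120 h, none called. The replicate block gave -1.10 for clr4 at 72 h against 0 h and changed no clr4 call; where numbers did not pair, same-numbered samples share only a number.

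Counts of features called moved by over 1.5 times as follows. GC correction, with or without the block, gave 3 at 24 h, 3 at 48 h and 5 at 72 h, and DESeq2 gave 4 at 72 h. A 2-fold minimum gave 0 at 24 h, 2 at 48, 96 and 120 h, in the 24 h recovery and in each deletion strain, and 3 in the second depletion. Only the groups compared gave 3 at 120 h, 5 at 120 h of the memory experiment and 3 in the second depletion, and summing each deletion replicate gave 3 in deletion 1. Leaving out each library gave 3 to 5 at 24 h, 3 to 6 at 48 h, 3 to 5 at 120 h and 3 to 5 in deletion 1. The cause was not tested.

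SPBC428.10 in the second depletion against untreated (0.05, uncalled) was -0.31 with GC correction, -0.32 and called with the block as well, and -0.13 to 0.20 leaving out each library; its second-minus-first difference (0.02) was -0.28, -0.27 and -0.17 to 0.19, and -0.81 and called when taken from untreated. Of 64 other called changes of features other than clr4, 33 lost their call under some alternative and none reversed. Library 2 of the second depletion, left out of the fit after the data were seen, changed no clr4 call in comparisons without it. Depth limits SPNCRNA.1361 and SPNCRNA.534 in the memory experiment.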
